A study of Mus musculus with 20 samples.

Results

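Primary mouse embryo fibroblasts (MEFs) were followed in culture over 96 h after a pulse of 4-hydroxytamoxifen (4-HT), in 2 lines that differ in the gene for UBF, an architectural factor of the ribosomal RNA genes. The 10 arrays of primary MEFs were taken from the 20 arrays of the series by their labels. They comprise 6 late arrays, at 48, 72 and 96 h post 4-HT (pHT), and 4 early arrays, at 0 and 24 h pHT. One line was Ubf fl/fl/Er-cre+/+ and the other isogenic Ubf wt/wt Er-cre+/+, and each had 3 late and 2 early arrays, with 1 array per time. Both lines were prepared from E14.5 embryos, were homozygous for ER-Cre, a recombinase that 4-HT sends to the nucleus, and were grown in DMEM with 10% serum. Both lines received 50 nM 4-HT for 4 h, after which the medium was renewed. Whether cells harvested at 0 h had received the pulse is not given in the sources used here. No arm kept without 4-HT over the same hours was analysed here, and each genotype is represented by 1 line. Age in culture, the 4-HT pulse and Cre activity cannot be told apart in the change over time of either line. In fl/fl cells loss of UBF cannot be told apart from them either, while wt/wt cells carry no floxed Ubf allele. Genotype was kept as a block, so that a change common to both lines was estimated against the scatter between times within a period. The same treatment and times in fibroblasts immortalized with the SV40 T antigens (iMEFs), again fl/fl and wt/wt, gave the other 10 arrays.

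Fibroblasts taken from an embryo divide for a limited time in culture, slow as the dish fills and as medium is spent, and then arrest, with p53 and the Rb family as the best known brakes. Rb-family proteins hold E2F factors and the DREAM complex on the promoters of S phase and mitotic genes, with CHR elements and CCAAT boxes marking the mitotic ones. SV40 large T antigen binds both p53 and Rb-family proteins. Fibroblasts also carry an innate response in which type I interferon drives its target genes through the ISRE element.

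Promoter stretches are shown for 8 genes with large changes whose printed bases hold the letters of these elements. They were picked for holding them, so some genes with larger changes are not shown, and the 8 say nothing of how common the letters are. Each is the 150 bases up to the annotated start in RefSeq GRCm38.p6, read 5′ to 3′ on the strand of the gene, with the elements in capitals. The first 3 are mitotic genes that fell, and their capitals mark the CHR letters TTTGAA and the CCAAT box. They lie at chr4:118437344-118437493 (minus strand), chr7:80294326-80294475 (plus strand) and chr3:27153879-27154028 (minus strand).
Cdc20: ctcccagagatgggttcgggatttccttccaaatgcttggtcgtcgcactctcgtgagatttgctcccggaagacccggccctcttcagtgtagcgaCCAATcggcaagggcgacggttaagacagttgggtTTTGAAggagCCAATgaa
Prc1: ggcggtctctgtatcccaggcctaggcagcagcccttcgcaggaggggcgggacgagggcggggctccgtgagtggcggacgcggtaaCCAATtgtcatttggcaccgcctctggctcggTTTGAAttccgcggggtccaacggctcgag
Ect2: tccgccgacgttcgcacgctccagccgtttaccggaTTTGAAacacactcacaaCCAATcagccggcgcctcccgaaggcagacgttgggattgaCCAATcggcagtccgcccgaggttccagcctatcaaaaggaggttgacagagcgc
The next pair are DNA replication genes that fell, at chr8:75109359-75109508 (plus strand) and chr1:128359706-128359855 (minus strand), and their capitals mark E2F letters.
Mcm5: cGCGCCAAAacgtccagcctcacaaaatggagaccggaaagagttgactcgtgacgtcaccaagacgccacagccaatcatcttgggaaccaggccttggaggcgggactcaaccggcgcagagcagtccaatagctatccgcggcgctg
Mcm6: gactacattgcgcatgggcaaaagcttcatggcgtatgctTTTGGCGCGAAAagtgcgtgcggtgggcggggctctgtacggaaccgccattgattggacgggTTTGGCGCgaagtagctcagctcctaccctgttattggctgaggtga
The last 3 are interferon-stimulated genes that rose, at chr19:34583379-34583528 (plus strand), chr3:142559894-142560043 (plus strand) and chr7:104465194-104465343 (minus strand), and their capitals mark the ISRE letters (GAAA, any 2 bases, GAAA), here read on the other strand.
Ifit3: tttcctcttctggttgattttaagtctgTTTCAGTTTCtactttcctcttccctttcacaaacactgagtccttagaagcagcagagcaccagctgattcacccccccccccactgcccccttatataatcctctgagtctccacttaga
Gbp3: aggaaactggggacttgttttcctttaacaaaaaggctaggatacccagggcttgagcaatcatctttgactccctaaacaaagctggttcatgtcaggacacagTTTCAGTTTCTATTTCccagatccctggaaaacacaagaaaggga
Trim30a: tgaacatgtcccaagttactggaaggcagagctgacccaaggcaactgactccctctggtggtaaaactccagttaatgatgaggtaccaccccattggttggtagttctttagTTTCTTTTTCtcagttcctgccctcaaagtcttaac
In windows of 250 bases before to 50 after each start, searched on both strands, TTTGAA stood in 34 of 44 windows of the mitosis list (77.3%), against 11.9% of the 14606 windows of all genes tested. CCAAT stood in 33 of these 44 windows (75%, against 36.5%), and both together in 28 (63.6%, against 4.65%). One of TTTCCCGC, TTTGGCGC, TTTGGCGG and TTTCGCGC, which can overlap as they do in Mcm6, stood in 17 of 39 windows of the replication list (43.6%, against 3.85%) and in 4.55% of the mitosis windows. The ISRE letters stood in 11 of 25 windows of the interferon-stimulated list (44%, against 2.9%). Over all genes that fell, TTTGAA stood in 16.8% of windows, CCAAT in 46.1% and the E2F letters in 9.27%. Over all genes that rose, the ISRE letters stood in 6.25%. These matches are letters in a window and not measured sites.

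As deposited, the values are on the log2 scale, and differences are given on that scale as the late minus the early mean over both lines with the standard error (SE) of the fit. Array medians of primary MEFs ran between 6.75 and 6.83, and the number of arrays limits the precision. Of 19938 genes with a probe set of their own, 14616 were bright enough on at least 2 primary MEF arrays to be tested. The fl/fl array at 96 h stood apart, at -41.4 on the second principal component, against -17.06 to 17.23 for the other 9 primary MEF arrays. The counts over all genes and those of some lists are also given without it. Ubtf, which encodes UBF, had values of 10.65, 10.55, 10.58, 10.53 and 10.65 at 0, 24, 48, 72 and 96 h pHT in fl/fl cells. In wt/wt cells they were 10.75, 10.60, 10.46, 10.22 and 10.22. The late change of Ubtf, -0.20 ± 0.09 (adjusted p = 0.196), did not pass the test. It was -0.02 ± 0.11 in fl/fl and -0.37 ± 0.11 in wt/wt cells. The probe set is not known here to lie in the floxed exons, so these values give no check of the genotype labels. Fibroblast markers, Col1a1, Col3a1 and Pdgfra among them, averaged between 11.4 and 11.8 on every primary MEF array. Of 19 macrophage markers, 18 were bright enough to be tested, and their mean level was between 8.44 and 9.82 on late and between 9.18 and 9.60 on early primary MEF arrays, against 6.21 to 6.65 in iMEFs. Their time courses are given with the inflammatory genes below.

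Late primary MEFs of both lines had far less RNA of the cell division genes, and most members tested of the interferon-stimulated, MHC class I, p53 target, complement and lysosome lists rose. At an adjusted p under 0.05, 1025 of the 14616 genes rose (7.01%) and 1445 fell (9.89%). These shares of all genes are the background for the list counts below. All 2470 had the same sign in both lines, which a call on the mean of both lines favours. Over all genes tested, without that choice, 62.4% had the same sign, with a Pearson correlation of 0.672 between the changes of the lines. By more than 1 on the log2 scale, that is 2-fold, 118 rose and 222 fell, and by more than 2, 11 rose and 53 fell. In both lines every late value lay above every early value for 1183 genes (8.09%) and below for 1645 (11.3%). The median over all genes tested was 0.00. In bulk RNA, fewer cells of a kind and less RNA per cell cannot be told apart. The call rests on where the line between early and late is drawn. With the 24 h arrays left out, 290 genes rose and 626 fell, and with 24 h counted as late 0 passed, while 1764 had an unadjusted p under 0.05.

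**Figure D1:**
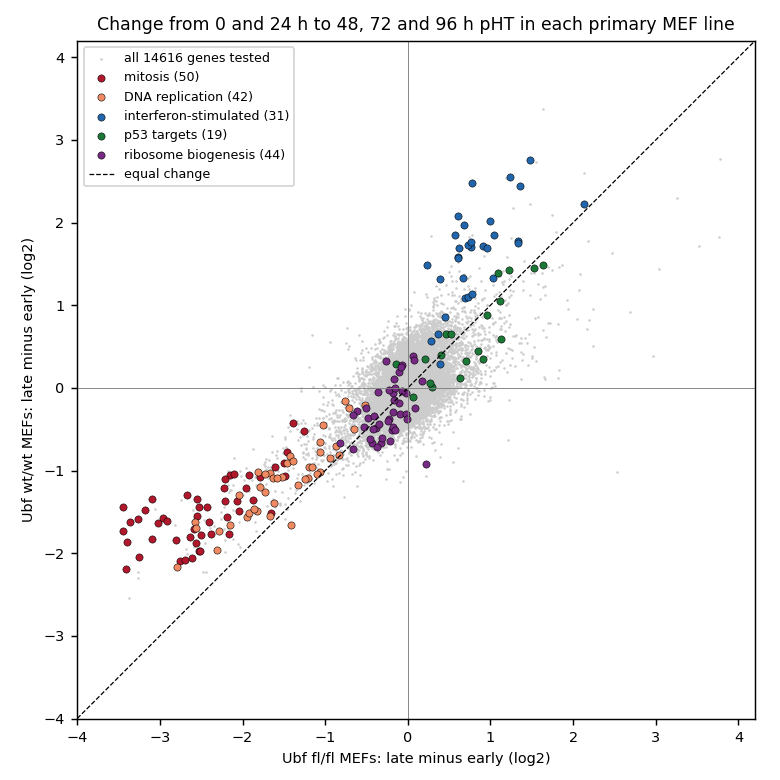
Late minus early change (log2) of each of the 14616 genes tested in Ubf fl/fl MEFs (horizontal axis) and Ubf wt/wt MEFs (vertical axis), with members of 5 gene lists coloured and the dashed line marking equal change. All 50 mitosis genes lie to the lower left with the lower value in fl/fl cells, and 30 of 31 interferon-stimulated genes have the higher value in wt/wt cells.

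Genes of mitosis fell without exception. All 50 members tested passed, with changes between -2.81 and -0.89 and a median of -2.03, or 4.09-fold lower, and for 49 of them the late and early values did not overlap in either line. Plk1, the kinase that drives entry into and progress through mitosis, had values of 11.29, 11.40, 9.14, 7.69 and 6.96 in fl/fl cells and 11.38, 11.34, 9.65, 8.98 and 8.86 in wt/wt cells. It held its level for 24 h in both lines, was lower at 48 h and had still lower values at 72 and 96 h in both lines, for a change of -2.81 ± 0.39 (adjusted p = 0.00104). Ccnb2, a B-type cyclin, had values of 12.11, 12.18, 10.17, 8.61 and 7.47 in fl/fl cells and 12.04, 12.06, 10.77, 9.91 and 9.89 in wt/wt cells, a change of -2.63 ± 0.48 (adjusted p = 0.00456). Its lowest value, at 96 h in fl/fl cells, lay below every other array.

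The rest of the list showed that the fall ran through all stages of division. Among genes of the spindle and its checkpoint, Kif2c, a kinesin that shortens microtubules, changed by -2.65 ± 0.35, Bub1 by -2.49 ± 0.47 and Bub1b by -2.46 ± 0.32. Aurkb, the kinase of the chromosomal passenger complex, had values of 10.97, 11.07, 9.08, 7.87 and 7.84 in fl/fl cells and 10.90, 10.91, 9.19, 8.59 and 8.66 in wt/wt cells and changed by -2.43 ± 0.25. Cdc20, the activator of the anaphase-promoting complex whose promoter is shown above, changed by -2.39 ± 0.23. For the end of division, Prc1, which bundles midzone microtubules, changed by -2.33 ± 0.47, Ect2, which activates RhoA at the cleavage site, by -2.33 ± 0.39, and Anln, a scaffold of the contractile ring, by -2.44 ± 0.57. Mki67, the proliferation marker, changed by -2.32 ± 0.38. The smallest fall was that of Ckap2 (-0.89 ± 0.25). By line, the list medians at 0, 24, 48, 72 and 96 h relative to the early mean were -0.07, 0.07, -1.68, -2.79 and -2.97 in fl/fl cells and -0.14, 0.14, -1.37, -1.53 and -1.61 in wt/wt cells. Most of the fall in wt/wt cells was thus in place at 48 h. All 50 members changed more in fl/fl cells, but for none did the difference between lines pass the test, as given below.

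**Figure D2:**
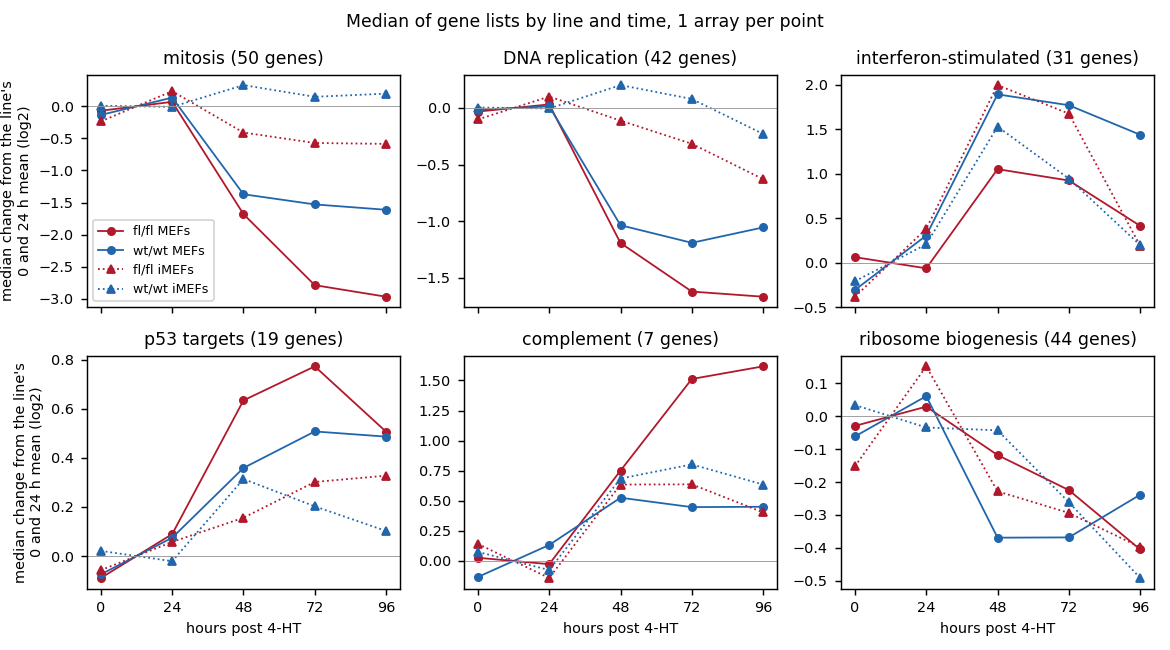
Median over 6 gene lists of the log2 change from the mean of 0 and 24 h of the same line (vertical axes, separate scales) against hours post 4-HT, for fl/fl and wt/wt primary MEFs (circles, solid) and fl/fl and wt/wt iMEFs (triangles, dotted), 1 array per point. Mitosis and replication medians of both primary lines lie below -1 at 48 h and those of iMEFs above -0.5, whereas interferon-stimulated medians are highest at 48 h in all 4 lines.

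DNA replication genes fell with them. Of 42 tested, 41 passed, with a median of -1.32, or 2.49-fold lower, and 40 did not overlap between late and early in either line. Mcm5, a subunit of the replicative helicase, had values of 10.72, 10.81, 8.73, 7.57 and 7.63 in fl/fl cells and 10.78, 10.71, 9.07, 8.32 and 8.35 in wt/wt cells and changed by -2.48 ± 0.25 (adjusted p = 0.000157). Both lines had lost most of it by 72 h, and the value did not drop further at 96 h. The other subunits changed by -2.10 ± 0.29 (Mcm6), -1.90 ± 0.17 (Mcm3), -1.75 ± 0.16 (Mcm7), -1.61 ± 0.11 (Mcm2) and -1.42 ± 0.21 (Mcm4). Tk1, thymidine kinase, had values of 9.54, 9.77, 7.98, 6.87 and 7.17 in fl/fl cells and 9.88, 9.71, 8.0, 7.74 and 7.77 in wt/wt cells (-2.14 ± 0.19), Pole, the leading-strand polymerase, changed by -2.13 ± 0.22, and Uhrf1, which reads hemimethylated DNA, by -2.01 ± 0.20. Pcna, the sliding clamp, changed less (-0.74 ± 0.16). The member that did not pass was Orc6, of the origin recognition complex, at -0.46 ± 0.15 (adjusted p = 0.0691). Counts of the mitosis and replication lists held with any single array left out, at 47 to 50 and 40 to 42 members, and with the 24 h arrays left out both were 36.

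Genes of replication-dependent histones were among the largest falls of all. H2ac4 had values of 10.21, 10.08, 7.82, 6.30 and 6.18 in fl/fl cells and 10.16, 9.58, 7.80, 6.99 and 7.21 in wt/wt cells and changed by -2.96 ± 0.33 (adjusted p = 0.000274). H2bc3 changed by -2.75 ± 0.36 and the linker histone gene H1f5 by -2.36 ± 0.24. These, like Pimreg (-2.78 ± 0.28), were outside the lists and were named by the size of their change.

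Regulators of the G1 phase moved less uniformly. Of 11 tested, 3 fell and Cdk6 rose (0.53 ± 0.13). E2f8 and E2f7, the repressor E2Fs, changed by -2.13 ± 0.22 and -1.57 ± 0.14, while E2f1 (-0.32 ± 0.12, adjusted p = 0.0914) and Ccnd1, cyclin D1 (0.14 ± 0.15, adjusted p = 0.601), did not pass. Myc had values of 10.54, 10.24, 10.10, 9.45 and 9.73 in fl/fl cells and 10.92, 10.73, 10.09, 9.62 and 9.92 in wt/wt cells and changed by -0.79 ± 0.15 (adjusted p = 0.00496). Its early values lay above the late ones in both lines, though 24 and 48 h in fl/fl cells differed by little. Among 22 genes of growth arrest and CDK inhibition, 9 rose and 3 fell. Btg2, an antiproliferative p53 target, rose by 0.86 ± 0.12, Rb1 by 0.73 ± 0.16, Txnip by 0.65 ± 0.18, Cdkn2b, encoding p15, by 0.49 ± 0.10 and Cdkn2a by 0.36 ± 0.10. Those that fell were Rbl1, the Rb-family member p107, at -0.92 ± 0.21, Cdkn2c, encoding p18, at -0.82 ± 0.08, and Cdkn2d, another CDK inhibitor gene, at -0.60 ± 0.08. Cdkn1a has no probe set of its own here and was not analysed. The count that rose depended on the times, with 2 left when the 24 h arrays were omitted and 3 without 72 h, and it was 5 without fl/fl 24 h, 5 without wt/wt 72 h and 4 with all 20 arrays in 1 fit.

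Targets of p53 rose in both lines. Of 19 tested, 13 rose (68.4%, against 7.01% of all genes) and 0 fell, with a median of 0.59. Perp, a membrane protein of desmosomes and of p53-dependent apoptosis, had values of 7.65, 7.78, 9.29, 9.41 and 9.37 in fl/fl cells and 7.95, 7.94, 8.66, 9.41 and 10.22 in wt/wt cells and changed by 1.56 ± 0.23 (adjusted p = 0.00145). It was flat over the first 24 h in both lines and had risen by 48 h in each. Fas, the death receptor, had values of 6.88, 7.02, 8.15, 8.83 and 8.44 in fl/fl cells and 6.62, 7.19, 7.86, 8.46 and 8.75 in wt/wt cells and changed by 1.49 ± 0.19 (adjusted p = 0.000597). Late and early values of both genes did not overlap. Trp53inp1, a stress protein that acts with p53, rose by 1.32 ± 0.21, Eda2r, a TNF-family receptor, by 1.24 ± 0.24, Mdm2, the ubiquitin ligase of p53, by 1.08 ± 0.19, Polk, a translesion polymerase, by 0.92 ± 0.19, and Ccng1, cyclin G1, by 0.56 ± 0.16. Those that did not pass included Bbc3, encoding PUMA (0.15 ± 0.12, adjusted p = 0.476), and Sesn2 (-0.03 ± 0.10, adjusted p = 0.914). The count was 12 to 14 with any single array left out.

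**Figure D3:**
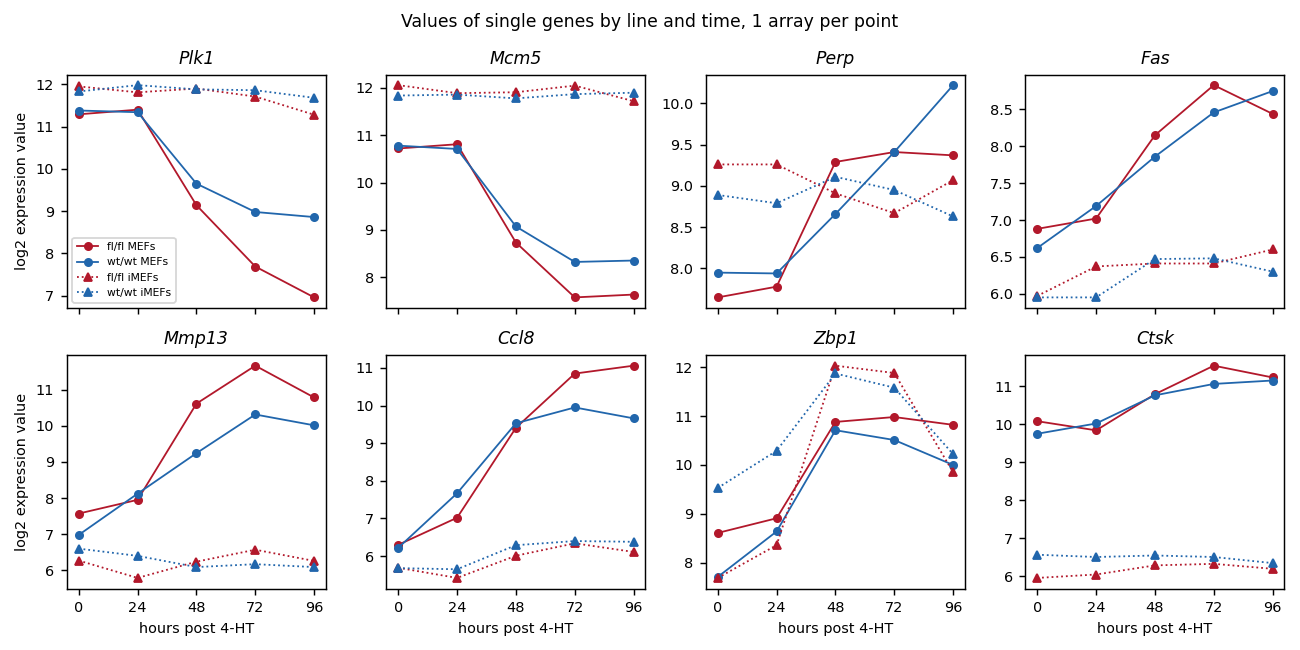
Log2 expression values (vertical axes, separate scales that do not start at 0) of 8 genes against hours post 4-HT, for fl/fl and wt/wt primary MEFs (circles, solid) and fl/fl and wt/wt iMEFs (triangles, dotted), 1 array per point. Plk1 and Mcm5 drop after 24 h and Perp, Fas, Mmp13, Ccl8 and Ctsk climb in both primary lines, while Zbp1 is highest at 48 or 72 h in all 4 lines.

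Interferon-stimulated genes rose broadly, with the highest list median at 48 h in both lines. Of 31 tested, 27 rose (87.1%) and 0 fell, with a median of 1.23, or 2.34-fold higher, and late and early values did not overlap for 19. Zbp1, a sensor of Z-form nucleic acids, had values of 8.61, 8.91, 10.88, 10.98 and 10.82 in fl/fl cells and 7.71, 8.64, 10.71, 10.51 and 10.0 in wt/wt cells and changed by 2.18 ± 0.18 (adjusted p = 7.43e-05). Ifit3, which acts with other IFIT proteins on foreign RNA, had values of 10.69, 10.65, 12.54, 12.25 and 11.65 in fl/fl cells and 9.04, 10.06, 12.40, 12.31 and 12.21 in wt/wt cells and changed by 2.12 ± 0.28 (adjusted p = 0.000842). The late values were above the early ones in both lines, by most at 48 h, and the early level was lower in wt/wt cells. Gbp3, a guanylate-binding protein, rose by 1.90 ± 0.33, Trim30a by 1.90 ± 0.33, Ifit1 by 1.63 ± 0.45, Rsad2, the antiviral enzyme viperin, by 1.51 ± 0.40, Irf7, the amplifier of the interferon response, by 1.56 ± 0.14, and Ifih1, the sensor MDA5, by 1.23 ± 0.32. Those that did not pass were Oasl1 (0.51 ± 0.25), Samd9l (0.85 ± 0.36), Cmpk2 (0.86 ± 0.31) and Cxcl10 (0.95 ± 0.34), all with positive values. The list medians at 0, 24, 48, 72 and 96 h were 0.06, -0.06, 1.05, 0.92 and 0.41 in fl/fl cells and -0.31, 0.31, 1.89, 1.77 and 1.44 in wt/wt cells. The response was thus highest at 48 h in each line and had partly receded at 96 h. Without the fl/fl array at 96 h 30 of the 31 rose, without the 24 h arrays 16, and 7 passed as a straight line over time. Outside the list, Ifit3b (2.51 ± 0.39), Iigp1 (2.14 ± 0.44), Ifi205 (1.91 ± 0.27) and Phf11d (1.86 ± 0.32), which are also interferon-induced, were among the 15 largest rises.

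Genes of antigen presentation by MHC class I rose as well, 7 of 9 tested, with a median of 0.69. Tap1, a subunit of the peptide transporter, had values of 9.64, 9.67, 10.69, 10.71 and 11.12 in fl/fl cells and 9.38, 9.32, 10.69, 10.25 and 10.12 in wt/wt cells and changed by 1.10 ± 0.13 (adjusted p = 0.000341). Its late values were above the early ones in both lines. Psmb8 and Psmb9, subunits of the immunoproteasome, rose by 0.99 ± 0.11 and 0.73 ± 0.14, Tap2 by 0.69 ± 0.10 and B2m, the light chain, by 0.31 ± 0.07. Psmb10 (0.27 ± 0.11) and Erap1 (0.72 ± 0.24) did not pass. Without the 24 h arrays the count was 4.

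Secreted inflammatory genes were among the largest rises. Ccl8, a chemokine for monocytes and other leukocytes, had values of 6.30, 7.02, 9.41, 10.85 and 11.06 in fl/fl cells and 6.22, 7.67, 9.53, 9.95 and 9.66 in wt/wt cells and changed by 3.27 ± 0.38 (adjusted p = 0.000402), or 9.66-fold. Every late value lay above every early value, and the early values already differed between 24 h and 0 h. Ccl11, the eosinophil chemokine eotaxin, had values of 7.44, 8.10, 10.26, 11.79 and 11.83 in fl/fl cells and 7.37, 8.65, 9.61, 10.09 and 9.47 in wt/wt cells and changed by 2.62 ± 0.44 (adjusted p = 0.00313). The acute-phase genes Saa3 (2.80 ± 0.62, adjusted p = 0.0119) and Lcn2, which binds siderophores (2.24 ± 0.56, adjusted p = 0.022), also rose. For Lcn2, with values of 6.80, 7.97, 9.21, 10.84 and 11.19 in fl/fl cells and 6.53, 8.96, 8.67, 9.21 and 9.67 in wt/wt cells, late and early values overlapped in wt/wt cells. Of 18 chemokines and cytokines tested 6 rose and 0 fell, with a median of 0.37, the others being Ccl5 (1.12 ± 0.15), Ccl7 (1.05 ± 0.16), Ccl2 (1.0 ± 0.18) and Cxcl5 (0.91 ± 0.21). Csf1 (0.35 ± 0.11), Il33 (0.12 ± 0.18) and Cxcl12 (0.11 ± 0.08) did not pass. The list medians at 0, 24, 48, 72 and 96 h were -0.14, 0.14, 0.55, 0.55 and 0.85 in fl/fl cells and -0.18, 0.18, 0.22, 0.18 and 0.22 in wt/wt cells, so that in wt/wt cells the late medians lay close to that of 24 h. Cd80, a costimulatory ligand of T cells, rose by 1.98 ± 0.24 and Ms4a4d by 2.05 ± 0.33.

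Complement genes rose in 5 of 7 cases, with a median of 0.87. C1s1, a protease of the first component, had values of 7.47, 7.42, 8.74, 10.32 and 9.99 in fl/fl cells and 7.58, 8.28, 8.52, 9.0 and 9.11 in wt/wt cells and changed by 1.60 ± 0.34 (adjusted p = 0.0101). C1ra, its partner protease, rose by 0.81 ± 0.20, Serping1, the inhibitor of both, by 1.14 ± 0.25, Cd55, which protects cells from complement, by 1.20 ± 0.27, and Cfb, of the alternative pathway, by 0.75 ± 0.21. C2 (0.87 ± 0.28) and C4b (0.53 ± 0.25) did not pass. The list median reached 1.62 at 96 h in fl/fl cells and 0.45 in wt/wt cells. Leaving out the 24 h arrays or the 72 h arrays left 1 call each, and 3 were left without fl/fl 0 h, fl/fl 24 h, fl/fl 72 h or wt/wt 0 h.

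Macrophages also express many of these chemokine, complement and lysosome genes, and their markers were present in primary MEFs. Of 18 markers tested 2 fell (11.1%, against 9.89% of all genes) and the others did not pass, so nothing is read from this count. Those that fell were Csf1r (-0.62 ± 0.18, adjusted p = 0.0361) and Cx3cr1 (-0.53 ± 0.16, adjusted p = 0.0426). Late and early values overlapped in fl/fl cells for Csf1r and in wt/wt cells for Cx3cr1. Over the list 7 changes were positive and 11 negative, with medians of 0.16 in fl/fl and -0.48 in wt/wt cells. The mean level of the list at 0, 24, 48, 72 and 96 h was 9.60, 9.31, 9.28, 9.69 and 9.82 in fl/fl cells and 9.23, 9.18, 9.10, 8.77 and 8.44 in wt/wt cells. It was thus highest at 96 h in fl/fl cells and lowest at 96 h in wt/wt cells. Of the defining markers, Adgre1, encoding a macrophage surface receptor, had values of 9.03, 9.07, 8.64, 9.36 and 9.16 in fl/fl cells and 8.41, 9.25, 8.69, 8.35 and 8.02 in wt/wt cells. Ptprc, the leukocyte antigen CD45, was dim, with values of 7.0, 7.01, 6.98, 7.85 and 6.80 in fl/fl cells and 6.09, 6.57, 6.23, 6.39 and 5.97 in wt/wt cells. The part of macrophages in the rises above was not tested.

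Of 21 matrix proteases and their inhibitors 8 rose (38.1%, against 7.01% of all genes) and 1 fell, with a median of 0.26. Mmp13, a collagenase, had values of 7.57, 7.95, 10.61, 11.66 and 10.78 in fl/fl cells and 6.98, 8.12, 9.24, 10.31 and 10.01 in wt/wt cells and changed by 2.78 ± 0.32 (adjusted p = 0.000354). It climbed in both lines between 24 and 72 h, and late and early values did not overlap. Mmp3, stromelysin 1, rose by 1.49 ± 0.39 (adjusted p = 0.0269), Mmp10 by 0.92 ± 0.15, Mmp2, a gelatinase, by 0.55 ± 0.13, and Timp3, an inhibitor, by 0.39 ± 0.08, while Mmp9 fell by 0.34 ± 0.08. Of 31 genes of collagens and their crosslinking 5 rose (16.1%) and 1 fell, with a median of 0.01. Among those that rose were Col8a1 (0.61 ± 0.15), Loxl4, a lysyl oxidase-like enzyme (0.60 ± 0.09), Col5a2 (0.53 ± 0.08) and Col12a1 (0.42 ± 0.08). The major fibrillar collagen genes Col1a1 (-0.05 ± 0.08), Col1a2 (-0.03 ± 0.08) and Col3a1 (0.14 ± 0.10) did not pass. Of 38 other matrix genes 9 rose (23.7%) and 1 fell, with a median of 0.11. The small proteoglycan genes Lum (0.76 ± 0.21) and Dcn (0.54 ± 0.16), the large proteoglycan gene Vcan (0.60 ± 0.16) and Efemp1, a fibulin (0.67 ± 0.15), were among those that rose. The list counts were sensitive to the arrays, with 2 proteases higher without the 72 h arrays and 1 other matrix gene higher without the 24 h or the 72 h arrays. Single arrays left out gave 5 to 9 higher proteases, 3 to 6 higher collagen genes and 2 to 13 other matrix genes, the fewest of the last without fl/fl 24 h and the most without fl/fl 96 h.

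Lysosomal genes rose in 17 of 31 cases (54.8%) and fell in 0, with a median of 0.36. Ctsk, cathepsin K, a collagen-degrading protease, had values of 10.08, 9.84, 10.79, 11.54 and 11.23 in fl/fl cells and 9.75, 10.02, 10.76, 11.06 and 11.15 in wt/wt cells and changed by 1.16 ± 0.14 (adjusted p = 0.00052). All late values were above the early ones in both lines. Ctsf rose by 1.06 ± 0.26, Ctso by 0.98 ± 0.21, Lamp2, a membrane protein of lysosomes, by 0.72 ± 0.19, Ctsd by 0.37 ± 0.09 and Hexa, a hexosaminidase subunit, by 0.43 ± 0.11. Tfeb, the regulator of lysosomal genes, was at -0.12 ± 0.12 (adjusted p = 0.582). The count depended on the times, and 3 calls were left without the 24 h arrays, 5 without 72 h, 7 without fl/fl 24 h and 10 without fl/fl 0 h. It was 11 without fl/fl 72 h, without wt/wt 24 h, and with the mean of both lines at each time. Abca1, the cholesterol exporter, had values of 9.20, 8.83, 9.86, 10.61 and 10.32 in fl/fl cells and 8.75, 8.84, 9.76, 10.15 and 9.84 in wt/wt cells and rose by 1.19 ± 0.15 (adjusted p = 0.000512). Its late values were above the early ones in both lines. Of 15 genes of lipid uptake and adipogenesis it was 1 of 3 that rose, with Fabp4 (0.45 ± 0.13) and Plin4 (0.27 ± 0.07). That count was 1 without the 24 h or the 72 h arrays, and also 1 without fl/fl 0 h, fl/fl 24 h, wt/wt 24 h or wt/wt 72 h.

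Of 21 genes of cholesterol synthesis 9 fell (42.9%, against 9.89% of all genes) and 0 rose, with a median of -0.41. Mvd, mevalonate diphosphate decarboxylase, had values of 10.25, 10.09, 9.71, 8.91 and 9.11 in fl/fl cells and 10.77, 10.31, 9.84, 9.55 and 9.40 in wt/wt cells and changed by -0.94 ± 0.16 (adjusted p = 0.00348). The late values were below the early ones in both lines. Lss, lanosterol synthase, fell by 0.87 ± 0.17, Mvk, mevalonate kinase, by 0.80 ± 0.11, Dhcr7, which makes cholesterol in the last step, by 0.79 ± 0.12, and Srebf2, encoding the regulator SREBP2, by 0.39 ± 0.10. Sqle (-0.41 ± 0.14), Hmgcs1 (-0.36 ± 0.29) and Insig1 (-0.33 ± 0.18) did not pass. At 48, 72 and 96 h the list median was -0.26, -0.58 and -0.93 in fl/fl cells, whereas it stayed at -0.22 at each of these times in wt/wt cells. The fl/fl array at 96 h stood far below the other late arrays in the median level of this list. Without it the median change over both lines was -0.305. Of 9 genes of fatty acid synthesis 3 fell, Fasn, the fatty acid synthase (-0.60 ± 0.09), and the desaturases Fads2 (-0.52 ± 0.10) and Fads1 (-0.45 ± 0.10), and 6 fell without fl/fl 96 h and 1 without the 24 h or the 72 h arrays. CCAAT stood in 17 of 20 promoter windows of the cholesterol list (85%), and the sterol regulatory letters TCACNCCAC in 1 (5%, against 1.26% of all windows).

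Among 30 targets of ATF4, the factor induced by amino acid shortage and other stress, 14 fell and 1 rose, with a median of -0.32. Shmt2, which makes mitochondrial one-carbon units from serine, had values of 11.87, 11.72, 10.97, 10.40 and 10.37 in fl/fl cells and 11.82, 11.66, 10.85, 10.47 and 10.47 in wt/wt cells and changed by -1.18 ± 0.13 (adjusted p = 0.000274). The late values were below the early ones in both lines. Psat1, of serine synthesis, fell by 0.99 ± 0.23, Mthfd2, a mitochondrial folate enzyme, by 0.92 ± 0.23, Chac1, which degrades glutathione, by 0.90 ± 0.17, and Slc7a5, a transporter of large neutral amino acids, by 0.72 ± 0.15. Ddit3, encoding CHOP, rose by 0.49 ± 0.09, and Atf4 itself was at -0.38 ± 0.12 (adjusted p = 0.0521). Of 16 ER chaperone genes 6 fell, among them Sdf2l1 (-0.58 ± 0.09) and Herpud1 (-0.54 ± 0.08), while Hspa5, encoding BiP (-0.10 ± 0.17, adjusted p = 0.778), did not pass. The ATF4 count was 2 without the 72 h arrays, 7 without 24 h and 4 without fl/fl 0 h, and it was 6 without wt/wt 0 h and 7 without fl/fl 24 h. It was 8 without fl/fl 72 h, and 9 without wt/wt 72 h or wt/wt 96 h. The ER chaperone count was 2 without the 24 h or the 72 h arrays.

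Ribosome biogenesis genes fell in 17 of 44 cases (38.6%, against 9.89% of all genes) and rose in 0, with a median of -0.31. Rrp1b, a nucleolar protein of rRNA processing, had values of 8.90, 8.95, 8.40, 8.14 and 8.26 in fl/fl cells and 9.01, 8.92, 8.30, 8.16 and 8.24 in wt/wt cells and changed by -0.70 ± 0.07 (adjusted p = 0.000191). Late values were below early values in both lines. Dkc1, the pseudouridine synthase of box H/ACA particles, fell by 0.74 ± 0.22, Noc4l by 0.55 ± 0.09, Grwd1 by 0.55 ± 0.10, and Polr1b and Polr1a, the large subunits of RNA polymerase I, by 0.54 ± 0.08 and 0.38 ± 0.07. Fbl, fibrillarin, fell by 0.35 ± 0.10, whereas Ncl, nucleolin (-0.37 ± 0.22), Npm1 (-0.20 ± 0.21) and Rrn3, an initiation factor of RNA polymerase I (0.13 ± 0.08), did not pass. The medians were -0.20 in fl/fl and -0.33 in wt/wt cells. The count was 5 without the 24 h arrays and 8 without 72 h. Small nucleolar RNAs, which guide rRNA modification, had a median of -0.18, and 7 of 43 fell (16.3%, against 9.89% of all genes). Their medians were -0.08 in fl/fl and -0.34 in wt/wt cells. Snord118, the U8 RNA of rRNA processing, had values of 7.36, 7.21, 6.16, 6.47 and 7.39 in fl/fl cells and 7.48, 7.52, 6.22, 6.52 and 6.17 in wt/wt cells and changed by -0.90 ± 0.22 (adjusted p = 0.0177). The fl/fl value at 96 h was back at the early level. Without this array 20 of the 43 fell, and 2 fell without the 24 h or the 72 h arrays. The count was 2 without wt/wt 0 h or wt/wt 24 h, 3 without the 48 h arrays, 4 without wt/wt 72 h, and 0 with all 20 arrays in 1 fit.

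Other groups had few calls, and nothing is read from their counts. Of 26 immediate early and ERK feedback genes 0 passed in limma, while 1 higher and 1 lower had an unadjusted p under 0.05, with medians of 0.27 in fl/fl and -0.15 in wt/wt cells. Glycolysis and hypoxia genes had 2 of 30 higher (6.67%) and targets of YAP 2 of 12 (16.7%), against 7.01% of all genes. Contractile genes had 1 of 20 lower (5%) and Hedgehog and cilium genes 2 of 26 (7.69%), against 9.89% of all genes. Single members stood out elsewhere. Hey1, a Notch target, had values of 9.84, 8.33, 7.84, 7.13 and 7.12 in fl/fl cells and 9.28, 8.32, 7.84, 7.72 and 7.65 in wt/wt cells and fell by 1.39 ± 0.30 (adjusted p = 0.0111), and the drop was already seen at 24 h in both lines. Grem1, a BMP antagonist, rose by 1.23 ± 0.23, Rora, a nuclear receptor of the clock, by 0.98 ± 0.18, and Selenop, the selenium carrier, by 0.98 ± 0.14. Dlk1, an imprinted inhibitor of adipogenesis, had values of 11.54, 11.14, 10.56, 10.08 and 10.47 in fl/fl cells and 12.21, 11.82, 11.32, 10.86 and 11.04 in wt/wt cells and fell by 0.96 ± 0.14 (adjusted p = 0.00125). Among 98 microRNA precursors 2 rose and 2 fell (2.04% each, against 7.01% and 9.89% of all genes). One of these, Mir18, of the cluster that Myc activates, changed by -1.05 ± 0.16. Its late values, 5.03 to 5.80, lay below the brightness limit of 6.16 to 6.25. It was thus tested only through its early arrays, and its change is near the floor.

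**Figure D4:**
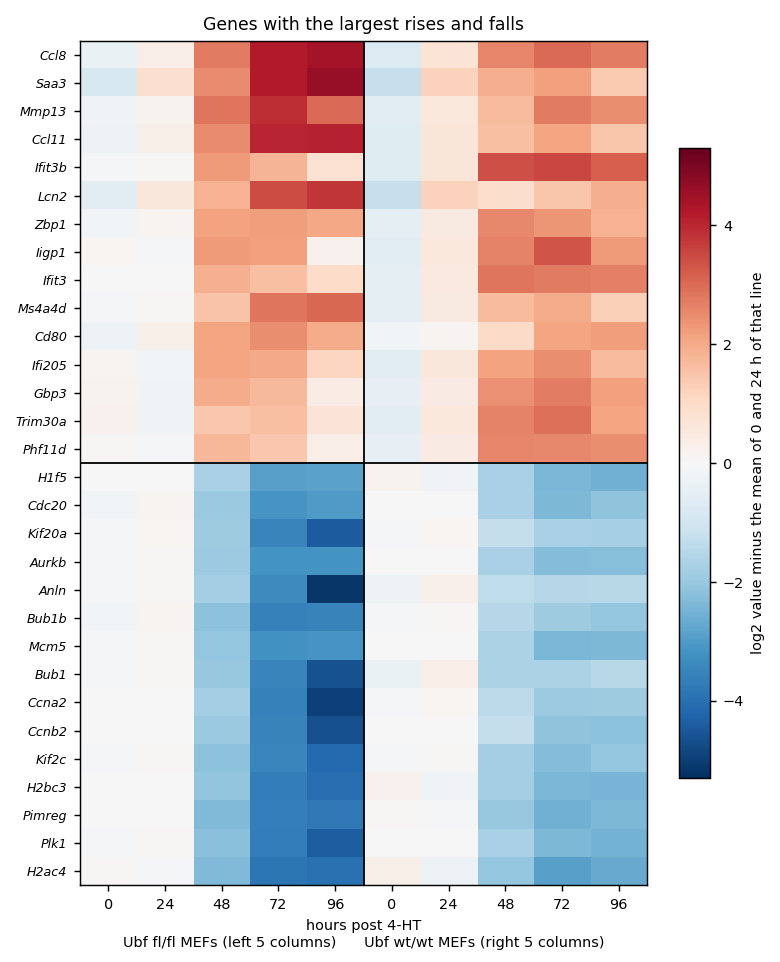
Log2 value of the 15 genes with the largest rises (upper rows) and the 15 with the largest falls (lower rows) minus the mean of 0 and 24 h of that line, in fl/fl (left) and wt/wt (right) primary MEFs at 0, 24, 48, 72 and 96 h post 4-HT. Except for Bub1 in wt/wt cells, each fall is deeper at 72 h than at 48 h in both lines, and the interferon-induced genes Iigp1, Gbp3 and Phf11d are back near 0 at 96 h in fl/fl cells.

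No gene passed a test of the difference between the lines, and the list medians of each line, given here as a description, were not tested against each other. With both lines in 1 fit, 496 genes rose (3.39%) and 686 fell (4.69%) in fl/fl cells, and 217 rose (1.48%) and 543 fell (3.72%) in wt/wt cells. Each line fitted alone gave 97 higher and 283 lower in fl/fl cells and 290 higher and 573 lower in wt/wt cells, so which line had more calls turned with the fit. For the difference of the late changes, fl/fl minus wt/wt, 0 of 14616 genes passed in limma (lowest adjusted p = 0.688), and 930 had an unadjusted p under 0.05. The median SE of this difference was 0.20, against 0.10 for the shared change, so only large differences could have passed. Of the genes that rose, 555 rose more in fl/fl and 470 in wt/wt cells, and of those that fell, 749 fell more in fl/fl and 696 in wt/wt cells. By list, the median change of fl/fl and wt/wt cells was -2.52 and -1.53 for mitosis, -1.49 and -1.08 for replication, 1.19 and 0.44 for complement and 0.73 and 1.70 for interferon-stimulated genes. The interferon-stimulated list started from a lower level in wt/wt cells. Its mean level at 0, 24, 48, 72 and 96 h was 9.34, 9.23, 10.42, 10.21 and 9.69 in fl/fl cells. In wt/wt cells it was 8.25, 8.77, 10.31, 10.26 and 9.83. Ccna2, cyclin A2, changed by -3.44 ± 0.68 in fl/fl and -1.74 ± 0.68 in wt/wt cells, Ccl11 by 3.52 ± 0.51 and 1.71 ± 0.51, and Ifit3b by 1.64 ± 0.42 and 3.38 ± 0.42. The difference of the changes, fl/fl minus wt/wt, was -1.70 ± 0.96, 1.81 ± 0.71 and -1.74 ± 0.60 for these 3 genes, against 0.16 ± 0.48 for Perp, 0.08 ± 0.39 for Fas and -0.07 ± 0.27 for Shmt2.

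Beside iMEFs, a difference in the late change passed the test for most division genes of the primary cells and for few interferon-stimulated genes. In iMEFs 178 genes rose late (1.22%) and 136 fell (0.93%). The late change was lower in primary MEFs than in iMEFs for 310 genes (2.12%) and higher for 123 (0.842%). Of these 433 genes, 393 had also passed in primary MEFs, 280 of them falls and 107 rises that were stronger there. The mitosis list had a median of -2.03 in primary MEFs and -0.16 in iMEFs, and 39 of its 50 members passed the test of the difference. The iMEF median joins lines that moved in opposite directions. Relative to the early mean, the mitosis medians at 48, 72 and 96 h were -0.41, -0.57 and -0.59 in fl/fl iMEFs. In wt/wt iMEFs they were 0.33, 0.15 and 0.20. For replication the medians were -1.32 in primary MEFs and -0.17 in iMEFs, and 27 of 42 members passed. By time these were -0.11, -0.32 and -0.63 in fl/fl iMEFs and 0.20, 0.08 and -0.23 in wt/wt iMEFs. Plk1 stayed between 11.28 and 11.98 on all iMEF arrays, and the difference of its late changes was -2.63 ± 0.43 (adjusted p = 0.00114). It was -2.51 ± 0.29 for Aurkb, -3.0 ± 0.44 for H2ac4 and -2.44 ± 0.28 for Mcm5.

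The late change was higher in primary MEFs than in iMEFs for 4 of 18 chemokines and cytokines, 2 of 21 matrix proteases and inhibitors and 3 of 19 p53 targets. Mmp13 stayed between 5.79 and 6.60 in iMEFs, and the difference was 2.80 ± 0.38 (adjusted p = 0.000178). It was 2.63 ± 0.42 for Ccl8 (adjusted p = 0.000852), 2.63 ± 0.49 for Ccl11 (adjusted p = 0.00342), 1.72 ± 0.28 for Perp (adjusted p = 0.000969) and 1.11 ± 0.22 for Fas (adjusted p = 0.00762). Cd55 (1.48 ± 0.32), Abca1 (1.30 ± 0.20), Ctsk (1.06 ± 0.18) and Loxl4 (0.75 ± 0.15) differed too, as did Myc (-1.07 ± 0.23), Shmt2 (-0.98 ± 0.17), Chac1 (-1.45 ± 0.24) and Dlk1 (-0.86 ± 0.19) in the other direction. The differences of the p53 targets Trp53inp1 (0.54 ± 0.30) and Eda2r (0.31 ± 0.31) did not pass. In iMEFs 2 of the 19 p53 targets rose, Eda2r among them, and the list median was 0.24. Ccl5 rose in both cell types and by less in primary MEFs, with a difference of -1.0 ± 0.23 (adjusted p = 0.0171). The interferon-stimulated list had a median of 1.23 in primary MEFs and 1.10 in iMEFs, and 1 of 31 members, Ifi27l2a, passed the test of the difference (-1.41 ± 0.36, adjusted p = 0.0388). Of the 31 members, 27 rose in primary MEFs and 12 in iMEFs. At 96 h the list medians were 0.41 and 1.44 in fl/fl and wt/wt primary MEFs, against 0.19 and 0.20 in fl/fl and wt/wt iMEFs. For Zbp1 the difference was -0.09 ± 0.60 (adjusted p = 0.967), an interval that spans either direction, and for Ifit3 it was 0.80 ± 0.80. With errors this wide, the few calls do not show that the responses were alike. Of the genes that rose and fell in primary MEFs, 82 and 73 did so in iMEFs as well, which is 8% and 5.05% of the primary calls and 46.07% and 53.68% of the iMEF calls. With the 24 h arrays left out 152 genes were lower and 30 higher in primary MEFs, and leaving out single arrays gave 215 to 408 lower and 55 to 334 higher, the fewest higher without fl/fl MEFs at 0 h and the most without wt/wt iMEFs at 48 h. Macrophage markers, at 8.44 to 9.82 on the primary MEF arrays and 6.21 to 6.65 on the iMEF arrays, differ between these cell types as well, and their part in the differences of Ccl8, Ccl11, Cd55 and Ctsk was not tested.

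**Figure D5:**
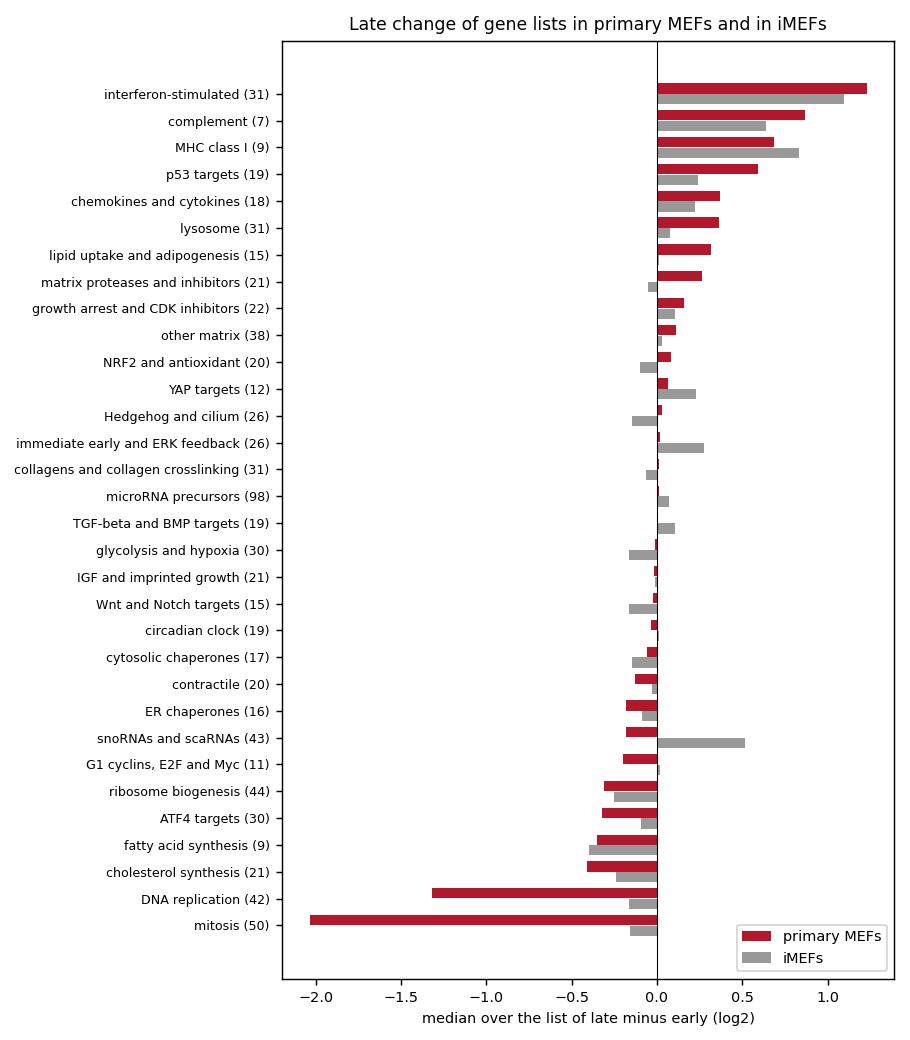
Median over each gene list (number of genes in brackets) of the late minus early change (log2) in primary MEFs (upper bar) and iMEFs (lower bar). Each bar takes both lines together. Mitosis and replication lie at -2.03 and -1.32 in primary MEFs and within 0.2 of 0 in iMEFs, whereas interferon-stimulated genes lie at 1.23 and 1.10.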

How the data were processed

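RNA of primary MEFs and iMEFs was hybridized to Affymetrix whole-transcript arrays, 1 array per line and time. The values the authors deposited are log2 values for every probe set of an array, made from all 20 arrays by RMA-sketch in Affymetrix Power Tools 1.14.4. The study names the Mouse Gene 2.0 ST array, while the probe annotation used here is that of Gene 1.0 ST. Of 35556 probe sets, 21789 carry 1 gene symbol, 1621 several and 12146 are not listed, and only the first were used. Identifiers of 21698 matched the table of mouse genes. The brightest probe set stood for each gene, and 14616 genes over the 40th percentile of an array on at least 2 primary MEF arrays were kept. limma 3.58.1 in R 4.3.3 fitted late (48, 72 and 96 h) minus early (0 and 24 h) with genotype as a block, on 7 residual degrees of freedom, with Benjamini-Hochberg adjustment over all genes tested and a threshold of 0.05. The genotype by late interaction, each line's change and the difference from iMEFs came from further limma fits. With 1 array per line and time the error is scatter between times, and nothing in the labels says which cultures were separate, so p-values measure only that spread, which may be technical. The script was tested on simulated data. Lists were described by counts and medians, with no list test. The members and lists were chosen with earlier results of these data known. Genes named are the 15 largest rises and falls with 1 sign in both lines (snoRNA-type, predicted and Rik genes were not eligible), at most 4 called members of a list, or its largest change where none was called, the 5 largest differences from iMEFs in each direction, and Ubtf. Others were named after their values were seen. Promoter windows are RefSeq GRCm38.p6, found for 11561 genes, and motifs were searched as exact letters on both strands. Alternatives were other scalings, filters, probe set rules, period limits, time models and single arrays left out.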

Additional observations from a re-analysis of the deposited data

Results flagged for a closer look

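The change from 0 and 24 h to 48, 72 and 96 h differed between primary MEFs and iMEFs for 433 genes. The 5 largest differences with the higher change in primary MEFs were those of Mmp13 (2.80), Saa3 (2.77), Ccl8 (2.63), Ccl11 (2.63) and Perp (1.72), all on the log2 scale and given as primary MEFs minus iMEFs. The 5 largest with the lower change were those of H2ac4 (-3.0), H2bc3 (-2.97), Plk1 (-2.63), Aurkb (-2.51) and Ccnb2 (-2.47).

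In 16 of 354 groups of late or early primary MEF arrays 1 array stood far from the others. That share is not above the about 1 in 20 that chance gives, so nothing is read from the number of groups. The value given is the gap to the nearest array as a share of the whole range. The fl/fl array at 96 h was the one in 9 of them. It was lowest for the median of cholesterol synthesis (0.648), Ifit3b (0.687), Rbl1 (0.706) and Mir145a (0.632), and highest for the median of NRF2 and antioxidant genes (0.878), Ctsf (0.641), Grwd1 (0.64), Notch3 (0.806) and Snord118 (0.704). Among late arrays, the wt/wt array at 96 h was lowest for the collagen median (0.629), the wt/wt array at 48 h lowest for Cd80 (0.656) and the fl/fl array at 72 h lowest for E2f7 (0.733). Among early arrays, the wt/wt array at 0 h was highest for the contractile median (0.936) and Mvk (0.886) and lowest for Dkc1 (0.911), and the fl/fl array at 24 h was highest for the clock median (0.883).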

How the results depend on the processing

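Of 1025 genes higher and 1445 lower in late primary MEFs, 290 and 626 passed with the 24 h arrays left out, 0 and 0 with 24 h counted as late (lowest adjusted p = 0.0713), 341 and 647 without 72 h, and 1666 and 1910 without 96 h. With single arrays left out the counts ran from 542 to 2089 higher and from 936 to 2241 lower. The higher count moved by over 1.5 times without fl/fl 0 h (578), fl/fl 24 h (542), fl/fl 72 h (630), fl/fl 96 h (2089), wt/wt 0 h (681) and wt/wt 72 h (656), the lower count without fl/fl 0 h (936) and fl/fl 96 h (2241). Centring on mRNA genes, quantile scaling, other filters, the mean of all probe sets, trend and robust settings, 48 h left out, a straight line over time, harvest time as a random block, the mean of both lines at each time, and all 20 arrays in 1 fit kept both counts within 1.5 times, at 751 to 1130 higher and 989 to 1562 lower. No paired analysis was possible because the labels carry no replicate numbers, other than through the harvest times that the lines share. Harvest time as a random block had a consensus correlation of -0.06, and 1130 genes rose and 1562 fell. The fl/fl minus wt/wt difference gave 0 calls in every fit, with single arrays left out also 0 to 0. Each fitted alone, fl/fl cells gave 97 higher and 283 lower, and wt/wt cells 290 and 573. For primary MEFs minus iMEFs, 123 higher and 310 lower genes became 244 and 458 with quantile scaling, 30 and 152 with 24 h left out, 37 and 203 with the mean of both lines at each time, and 55 to 334 and 215 to 408 with single arrays left out. This last alternative, and list medians without fl/fl 96 h or centred on mRNA genes, were added after the data were seen. The lysosome median was 0.27 with 24 h left out, in place of 0.36, and no other list median moved by more than its spread. Tubb3, which did not pass, changed sign to 0.0877 with 24 h counted as late. Of 131 named genes that passed, 79 kept the call with 24 h or 72 h left out, 124 when centred on mRNA genes, 131 without fl/fl 96 h and 0 with 24 h counted as late, and 0 reversed. The cause of these moves was not tested. Small or dim genes are the least certain, since all rest on 10 arrays.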
